A study of Mus musculus with 18 samples.

Results

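The T cell receptor reads antigen through its α and β chains but signals through the invariant chains of the CD3 complex. Described here are the transcripts of 10 genes at the start of that pathway: the CD3 chains Cd3d, Cd3e, Cd3g and Cd247 (the ζ chain), the kinases Lck and Zap70, the adaptor Lat, and the coreceptors Cd4, Cd8a and Cd8b1. The members were chosen by name, and all 10 of 10 were found among the 18329 genes of the acute table and the 18953 genes of the survival table. Each had a mean normalized count of at least 10 in both tables and was tested.

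RNA was sequenced from whole spleen cell suspensions of C57BL/6 mice transplanted with T-cell acute lymphoblastic leukemia (T-ALL) that carried a conditional allele of Acly, the gene of ATP citrate lyase, which makes cytosolic acetyl-CoA. There were 18 libraries in 5 groups: 4 each of WT acute, KO acute and WT survival, and 3 in each of the groups KO survival first wave and KO survival second wave. KO libraries are labelled as Acly deleted and WT libraries as control. The recipients were irradiated before transplant in every group. The protocol names 2 treatments, tamoxifen (3 mg for each mouse, dissolved in corn oil) and the corn oil vehicle without it. Every KO group is listed with tamoxifen and each WT group without it. Acute mice were treated once leukemic and their spleens taken after 48 h, whereas survival mice were treated 48 h after transplant and sampled at the humane endpoint. No group received tamoxifen with the gene intact, so tamoxifen and the loss of Acly cannot be told apart. The labels do not define the waves, the Cre driver, the ages, the number of primary leukemias or whether each library stands for its own mouse. The p-values therefore measure the spread between these samples, which may be technical.

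When a peptide is bound, Lck, which is held on the inner face of the membrane and also by the tails of CD4 and CD8, phosphorylates the tyrosine motifs of the CD3 chains. Zap70 binds those motifs and phosphorylates Lat, on which the enzymes of calcium and Ras signalling assemble. Developing thymocytes first display a receptor with the pre-T α chain, then carry both coreceptors, and later keep either CD4 or CD8, and T-ALL arises from such precursors.

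Acly itself was lower in the libraries labelled KO. Its mean normalized count was 1256 in WT acute and 733 in KO acute libraries (log2 fold change -0.78, SE 0.13, adjusted p = 0.00266), and 1697 in WT survival libraries against 727 in the first and 576 in the second wave, with no overlap between KO and WT in either table. The survival differences of Acly were -1.22 in the first wave (adjusted p = 0.0562, short of the threshold) and -1.56 in the second (adjusted p = 0.00155). The thymocyte genes Rag1 (group means of 15635 to 36297) and Ptcra (group means of 832 to 1318) were abundant in every group. The estimated depth was between 6.1 and 12.7 M reads. Libraries KO acute 1 and 2 had 4.8% and 5.27% of their counts in mitochondrially encoded genes, against 2.35% and 2.7% in KO acute 3 and 4 and 3.5% to 3.69% in WT acute. On the first principal component of the survival libraries (25% of the variance), WT survival 1 and 2 lay at -78.6 and -67.2, second-wave library 1 at 73.2, and the other 7 between -4.2 and 18.8. The normalized counts were scaled separately in each table, so levels are compared within a table.

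Of the CD3 genes, 3 are neighbours on chromosome 9 of GRCm38. Cd3g (44969572 to 44980431, minus strand) and Cd3d (44981786 to 44987339, plus strand) are transcribed away from each other from starts 1355 bp apart, and Cd3e (44998740 to 45009627, minus strand) lies 11400 bp beyond Cd3d. The bases upstream of their starts are shown because these genes lie side by side and Cd3g passed the acute test as lower in KO, and those of Lat because it passed as higher. They come from RefSeq on GRCm38.p6, in which 8 of the 10 members matched an entry and Cd4 and Cd8b1 did not. Each runs 5′ to 3′ on the gene's strand over the 250 bases before the RefSeq start (chr9:44980432-44980681 on the minus strand for Cd3g, chr9:44981536-44981785 on the plus strand for Cd3d, chr9:45009612-45009861 on the minus strand for Cd3e and chr7:126369569-126369818 on the minus strand for Lat). In GENCODE, the source of the gene coordinates, Cd3e starts at 45009627 and Lat at 126369570. The last bases of the Cd3e and Lat windows thus lie inside those genes. Capitals mark matches, on either strand, to 6 short motifs of factors of T cell promoters and the TATA box.
Cd3g: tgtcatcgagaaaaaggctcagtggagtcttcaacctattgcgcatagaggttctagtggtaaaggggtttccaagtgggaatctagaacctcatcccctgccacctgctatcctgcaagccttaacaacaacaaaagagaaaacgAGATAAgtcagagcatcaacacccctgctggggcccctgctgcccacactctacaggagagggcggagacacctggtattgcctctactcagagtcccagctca
Cd3d: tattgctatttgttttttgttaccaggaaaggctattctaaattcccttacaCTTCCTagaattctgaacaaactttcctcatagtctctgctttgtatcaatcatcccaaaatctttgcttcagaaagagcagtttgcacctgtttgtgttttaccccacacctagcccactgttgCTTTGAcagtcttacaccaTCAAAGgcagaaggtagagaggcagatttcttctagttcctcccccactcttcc
Cd3e: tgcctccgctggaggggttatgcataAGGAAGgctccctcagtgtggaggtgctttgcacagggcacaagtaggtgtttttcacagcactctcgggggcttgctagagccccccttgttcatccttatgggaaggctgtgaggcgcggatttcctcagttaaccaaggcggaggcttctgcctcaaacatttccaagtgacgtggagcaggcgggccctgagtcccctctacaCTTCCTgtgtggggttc
Lat: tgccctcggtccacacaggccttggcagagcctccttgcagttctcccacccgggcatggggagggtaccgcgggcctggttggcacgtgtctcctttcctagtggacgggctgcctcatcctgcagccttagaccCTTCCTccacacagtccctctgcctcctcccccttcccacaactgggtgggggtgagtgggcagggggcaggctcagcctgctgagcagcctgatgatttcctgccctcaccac
The motifs searched were AGGAAG for ETS factors, TGTGGT for RUNX factors, CTTTGA for TCF and LEF factors, CAGCTG for the E-box, AGATAA for factors of the Gata family and TATAAA for the TATA box. No match overlapped another in these windows. The Cd3d window held 1 ETS match and 2 TCF/LEF matches, the Cd3e window 2 ETS matches, the Cd3g window 1 GATA match and the Lat window 1 ETS match. In all 32851 windows of this length, 29.48% held the ETS letters, 13.83% those of TCF/LEF, 14.05% those of RUNX, 13.0% those of the E-box and 9.99% those of GATA, so such matches are common. None of the 4 windows held the TATA letters, which 12.37% of all windows did.

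The remaining members lie on 4 other chromosomes. Cd8b1 (chromosome 6, 71322788 to 71337494) and Cd8a (chromosome 6, 71373427 to 71379173) sit on the plus strand with 35932 bp between them, and Cd4 is on the minus strand of the same chromosome (124864692 to 124888221). Lck is on chromosome 4 (129548344 to 129573641, minus strand) and Lat on chromosome 7 (126363824 to 126369570, minus strand). Cd247 (165788681 to 165877277) and Zap70 (36761798 to 36782818) are on the plus strand of chromosome 1. Exons of Cd247 overlap those of Pou2f1 on the opposite strand, and exons of Cd3e overlap those of the antisense gene Gm48719, so the values of both are uncertain where reads could have been assigned to the partner. On their own strand, Cd247 shares exon sequence with Gm16565, Lck with the microRNA gene Mir8119 and Lat with the microRNA gene Mir7058, which strand does not separate.

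Per length, the members spanned a wide range of levels, with Lck at the top and Zap70 and Cd4 at the bottom. In normalized counts per kb of the longest coding transcript, Lck had 3586 ± 232 (SD, n = 4) in WT acute libraries, above Cd3g at 2147 ± 97.4 and Cd3e at 2088 ± 123, which overlapped. Cd8a (995 ± 229), Lat (862 ± 82.2) and Cd8b1 (619 ± 170) followed, each overlapping the next, and then Cd3d (305 ± 28.5), Cd247 (187 ± 18.03), Zap70 (70.9 ± 17.3) and Cd4 (62.6 ± 17.9), of which the last pair overlapped. The place of Cd3d depends on the transcript, since its 2 coding transcripts measure 286 and 1617 nt. Coding transcripts of Lck (368 to 2185 nt), Cd3g (412 to 1023 nt), Zap70 (454 to 2245 nt), Lat (559 to 1235 nt) and Cd247 (1317 to 2957 nt) also differ in length. The order, with Lck at the top, was taken with the longest transcripts and may change with others. In KO acute libraries Lat (1164 ± 127 per kb) stood above Cd8a (714 ± 126 per kb) with no overlap, and Cd4 (139 ± 47.4 per kb) above Zap70 (79.9 ± 11.3 per kb) with overlap. All 3 survival groups had the order Lck, Cd3e, Cd3g, Cd8a, Lat, Cd8b1, Cd3d, Cd247 in mean level per kb. Zap70 and Cd4 followed and overlapped each other in each group. Lat and Cd8b1 also overlapped in each group, Cd3e and Cd3g in the first wave and WT, and Cd8a and Lat in the second wave. In WT survival libraries Lck overlapped Cd3e as well, and Cd8b1 overlapped Cd3d.

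The acute comparison asks what differed 48 h after treatment of leukemic mice. In KO acute spleens the adaptor Lat and the coreceptor Cd4 were higher and the CD3 chain Cd3g was lower than in WT. The other 7 members did not pass the test at an adjusted p of 0.05. Among all 14184 genes tested, 12.6% passed, 4.58% higher and 8.07% lower, against 2 members higher and 1 lower of 10. At an unadjusted p under 0.05 there were 4 members, against 28.1% of all genes. The median log2 fold change was -0.17 over the 10 members and 0.03 over all genes. The sign was negative for 7 members, but it turned positive when each library's dependence on transcript length, GC content and abundance was removed for Cd3d (0.06), Cd3e (0.17), Cd247 (0.17) and Lck (0.09), and after quantile normalization for Cd247 (0.04) and Lck (0.12). In whole spleen cells, fewer cells of a type and less RNA per cell cannot be told apart.

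Cd3g, the γ chain of the complex, had 2317, 2162, 2082 and 2227 normalized counts in WT acute libraries 1 to 4 and 1330, 1355, 1793 and 1945 in KO acute libraries 1 to 4. The groups did not overlap, as was so for 19% of all genes (8.04% higher and 11% lower in KO), and KO libraries 1 and 2 were the lowest. The log2 fold change was -0.47 (SE 0.13, adjusted p = 0.0342), a KO mean of 73.1% of WT. This call was lost without any one of the WT libraries 1 to 4 or without KO library 1 or 2 (adjusted p of 0.0601 to 0.0933), and the difference was -0.23 (adjusted p = 0.245) without KO libraries 1 and 2 together. After each library's dependence on transcript length, GC content and abundance was removed, it was -0.01 (adjusted p = 0.982), and after quantile normalization -0.33 (adjusted p = 0.101).

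Cd3e, whose chain pairs with both CD3γ and CD3δ, had 3228, 2951, 3177 and 2853 normalized counts in WT acute libraries 1 to 4 and 2139, 2025, 3479 and 3327 in KO acute libraries 1 to 4. The KO libraries lay on both sides of WT: 1 and 2 lay below every WT library, and 3 and 4 lay above every WT library. The log2 fold change of -0.20 (SE 0.16, 95% interval -0.55 to 0.16, adjusted p = 0.469) therefore averages a pair of low and a pair of high libraries. The SD was 767 in KO and 179 in WT libraries.

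Cd3d, the δ chain, had 480, 443, 499 and 554 normalized counts in WT acute libraries 1 to 4 and 309, 493, 549 and 437 in KO acute libraries 1 to 4. KO library 1 and, by a small margin, KO library 4 lay below WT, and the rest lay within the WT range. Its log2 fold change was -0.17 (95% interval -0.56 to 0.22, adjusted p = 0.574). Cd247, the ζ chain, which carries most of the signalling motifs, ranged from 502 to 622 in WT and from 469 to 649 in KO libraries, so that the KO range enclosed the WT range (log2 fold change -0.04, 95% interval -0.35 to 0.28, adjusted p = 0.903). The interval leaves room for changes of either sign.

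Lck, the kinase that starts the cascade, had 7756, 7148, 8221 and 8212 normalized counts in WT acute libraries 1 to 4 and 6178, 6850, 8012 and 6911 in KO acute libraries 1 to 4. KO libraries 1, 2 and 4 lay below the lowest WT library and KO library 3 within the WT range, and the log2 fold change was -0.17 (SE 0.10, adjusted p = 0.289). Zap70, the kinase that docks on phosphorylated CD3 chains, was low throughout, with 153, 197, 107 and 179 in WT libraries 1 to 4 and 205, 196, 166 and 151 in KO libraries 1 to 4. The ranges overlapped (log2 fold change 0.20, 95% interval -0.29 to 0.69, adjusted p = 0.610).

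Lat, the membrane scaffold that Zap70 phosphorylates, had 1029, 949, 1189 and 1093 normalized counts in WT acute libraries 1 to 4 and 1444, 1623, 1444 and 1240 in KO acute libraries 1 to 4. Every KO library was above every WT library. The log2 fold change was 0.43 (SE 0.12, adjusted p = 0.0354), or 1.35-fold by the means. The call was lost without WT library 1, 2 or 4 or KO library 1, 2 or 3 (adjusted p of 0.0686 to 0.105) and was 0.33 (adjusted p = 0.186) without KO libraries 1 and 2 together. It was larger after quantile normalization (0.57, adjusted p = 0.0138) and after removal of the dependence on length, GC and abundance (0.69, adjusted p = 0.00425).

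**Figure D1:**
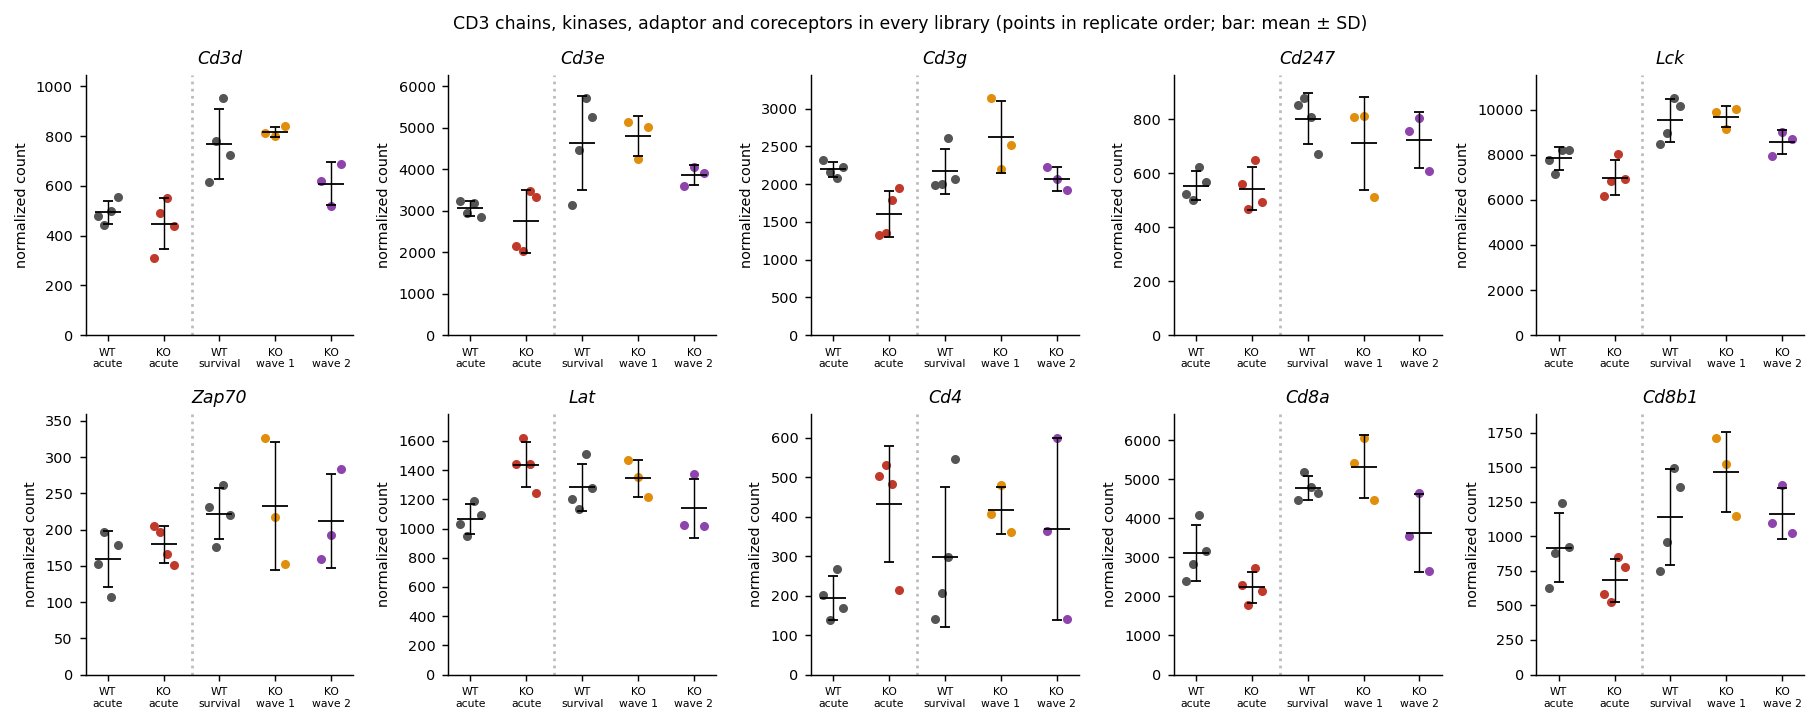
Normalized counts (y axes, each from 0) of the 10 members in the 18 libraries, 1 panel per gene; points are libraries in replicate order, the bar is the mean with its SD, and the dotted line divides the acute from the survival table, which were scaled separately. Every KO acute library is above WT for Lat and below WT for Cd3g, and for Cd3e the KO acute libraries lie on both sides of WT.

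Cd4, the coreceptor for MHC class II, had 202, 139, 268 and 169 normalized counts in WT acute libraries 1 to 4 and 503, 532, 483 and 215 in KO acute libraries 1 to 4. KO libraries 1 to 3 lay above every WT library, and KO library 4 lay within the WT range. The log2 fold change was 1.11 (SE 0.29, 95% interval 0.50 to 1.72, adjusted p = 0.0220), the largest in size among the 10 members in this comparison. Without KO library 4 it was 1.42 (adjusted p = 0.00285). The call was lost without WT library 2 or 4 or KO library 1, 2 or 3 (adjusted p of 0.0546 to 0.067), and without KO libraries 1 and 2 together the difference was 0.77 (adjusted p = 0.195).

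Cd8a and Cd8b1, the chains of the coreceptor for MHC class I, both had lower means in KO but did not pass the test. Cd8a had 2387, 2833, 4077 and 3151 normalized counts in WT acute libraries 1 to 4 and 2291, 1769, 2725 and 2144 in KO acute libraries 1 to 4. Only KO library 3 reached into the WT range, and the log2 fold change was -0.47 (SE 0.16, unadjusted p = 0.0125, adjusted p = 0.0764). The test was passed without WT library 1 (adjusted p = 0.0355) or without KO library 3 (adjusted p = 0.0448). Cd8b1 ranged from 628 to 1241 in WT and from 522 to 850 in KO libraries, which overlapped (log2 fold change -0.41, SE 0.21, adjusted p = 0.208).

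**Figure D2:**
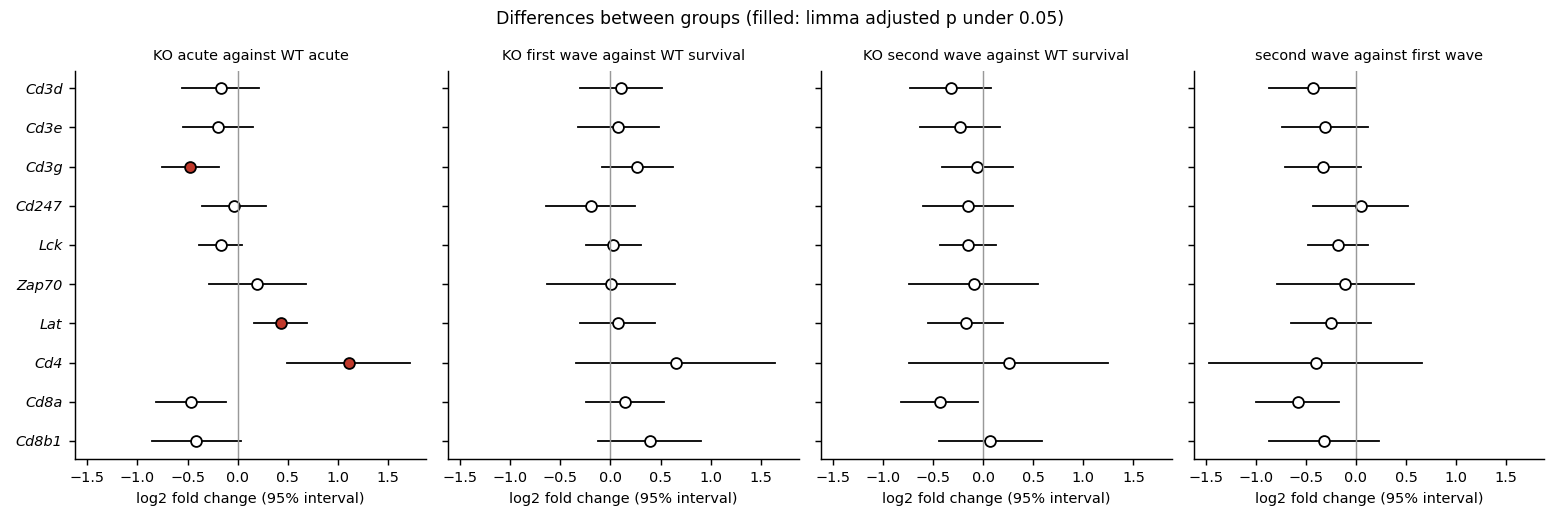
Log2 fold change (x axis, on log2 of the value plus 1) with its 95% interval for each member (rows) in 4 comparisons; filled points passed an adjusted p of 0.05 in limma. Cd3g (-0.47), Lat (0.43) and Cd4 (1.11) are filled in the acute comparison, and no point is filled in the survival comparisons.

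Several other measures also varied among the acute libraries, some with overlap between the groups, and their part in the results was not tested. KO libraries 1 and 2, the pair of high mitochondrial share, had the lowest Cd3e, Cd3g and Lck of the 8 acute libraries, with KO library 4 close to them in Lck. For Cd4 and Lat the same pair was high, but KO library 3, which has the smallest mitochondrial share, was as high as library 1 in Lat (both 1444) and close to it in Cd4. The summed markers of thymocytes and T-ALL (12 of 12 listed genes measured) ran from 54390 to 77078 in KO and from 82272 to 96083 in WT libraries. The summed neutrophil markers (12 of 12) ran from 1803 to 5154 against 975 to 1973, and the macrophage markers (12 of 12) from 1093 to 2364 against 841 to 1054. The macrophage difference was mostly that of Lyz2 (597 to 1705 in KO and 231 to 547 in WT), and the other 11 macrophage genes overlapped, at 496 to 704 against 484 to 674. Markers of dendritic cells, a subset of which also expresses Cd4, summed to 287 to 455 in KO and 227 to 307 in WT (9 of 10 listed genes measured), with Batf3 listed at 0 in KO. Mature T cell markers (10 of 12) summed to 2592 to 3298 in KO and 3697 to 4909 in WT, and natural killer cell markers (10 of 12) to 347 to 368 against 365 to 526, with Ncr1 at group means of 1.503 and 3.346. Most of that sum was Gzma (158 to 271 in KO and 272 to 420 in WT), and the other 9 natural killer cell genes overlapped, with mean sums of 136 in KO and 109 in WT. B cell markers (12 of 12) summed to 493 to 1231 against 357 to 798, and erythroid markers (11 of 12) to 1960 to 10542 against 5516 to 11242.

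**Figure D3:**
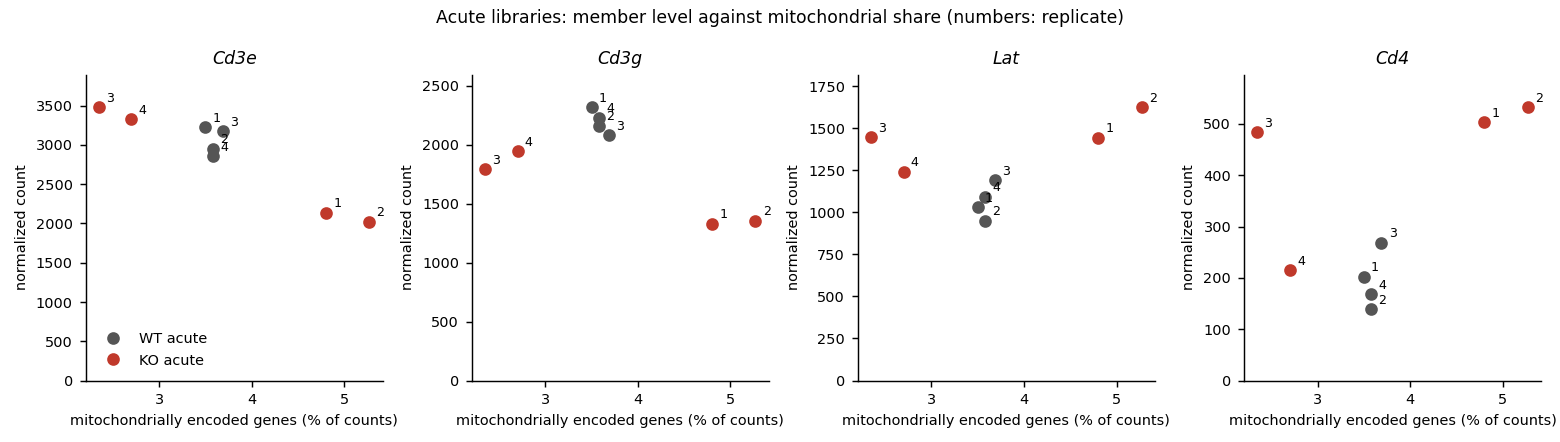
Normalized counts (y axes, each from 0) of Cd3e, Cd3g, Lat and Cd4 in the 8 acute libraries against the share of counts in mitochondrially encoded genes (x axis, %), with the replicate number beside each point. KO acute 1 and 2, at 4.8% and 5.27%, are the lowest in Cd3e and Cd3g, whereas KO acute 3, at 2.35%, is high in Lat and Cd4.

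Ratios of a pair of members within a library do not depend on that library's scaling. Of 6 ratios compared, 2 separated KO from WT acute libraries without overlap. The share among ratios of other genes was not computed, and 19% of all single genes separated. Each of these ratios holds a member called on its own (Cd4 or Lat), so it is not separate evidence. Cd8a to Cd4 was 11.8, 20.4, 15.2 and 18.7 in WT libraries 1 to 4 and 4.55, 3.32, 5.64 and 9.99 in KO libraries 1 to 4, so the KO and WT libraries did not overlap. The mean log2 ratio was 2.43 ± 0.67 (SD, n = 4) in KO and 4.01 ± 0.35 (SD, n = 4) in WT, a difference of -1.58 (two-sided exact permutation test, p = 0.0286, adjusted over 6 ratios 0.0857). That p is the smallest that 4 against 4 libraries can give. After adjustment over 6 ratios, a single ratio could not pass, however far apart the groups lay. The adjusted p is therefore not a near miss.

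Lat to Lck was 0.133, 0.133, 0.145 and 0.133 in WT libraries 1 to 4 and 0.234, 0.237, 0.180 and 0.180 in KO libraries 1 to 4. The WT values were nearly constant and the KO values were higher in each library. The log2 difference was 0.60 (two-sided exact permutation test, p = 0.0286, adjusted p = 0.0857). Cd8b1 to Cd8a overlapped between the groups (log2 difference 0.05, exact p = 0.714), as did Cd3g to Cd3d (-0.30, exact p = 0.171), Cd247 to Cd3e (0.16, exact p = 0.429) and Zap70 to Lck (0.37, exact p = 0.2). The last 4 ratios had adjusted p of 0.3 to 0.714.

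**Figure D4:**
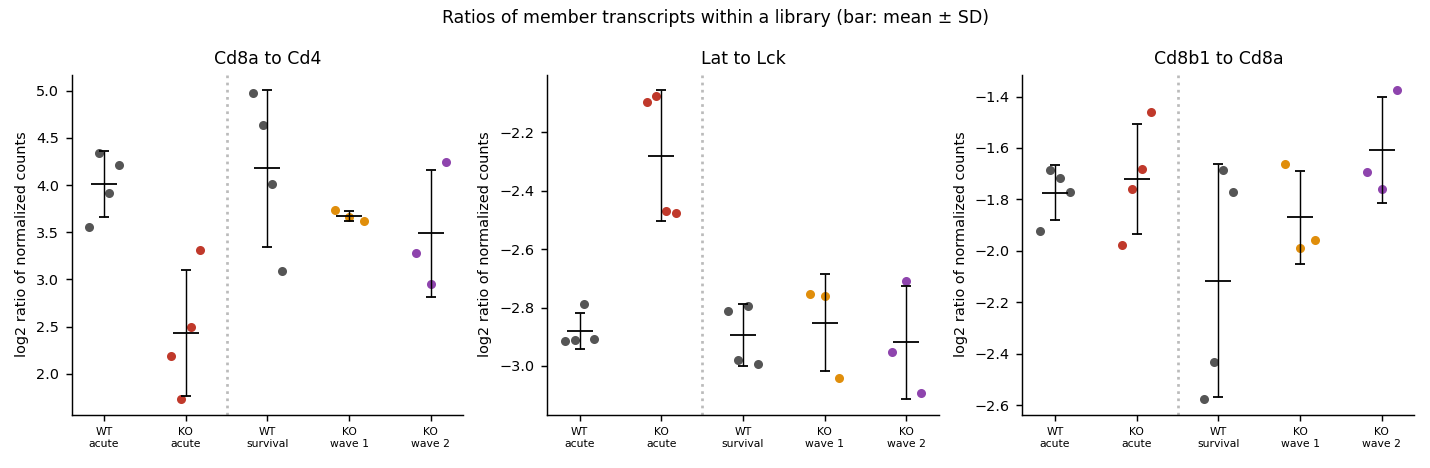
Log2 ratios of Cd8a to Cd4, Lat to Lck and Cd8b1 to Cd8a (y axes) in the 18 libraries; points are libraries in replicate order, the bar is the mean with its SD, and the dotted line divides the tables. KO acute lies below WT acute for Cd8a to Cd4 and above it for Lat to Lck, the survival groups overlap in all 3 ratios, and WT survival 1 and 2 are lowest in Cd8b1 to Cd8a.

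At the humane endpoint, none of the 10 members differed past the threshold between KO and WT. In the first wave, limma called 0 of 10 members, with 0 of 10 at an unadjusted p under 0.05 as well, against 0% and 8.02% of the 14286 genes tested. In the second wave it called 0 of 10, with 1 of 10 at an unadjusted p under 0.05, against 0.224% and 13% of all genes. With both waves averaged, 0 of 10 passed, and 0 of 10 at an unadjusted p under 0.05, against 0.021% and 12.9%. Without WT survival library 3, the genes called rose from 3 to 155 for both waves and from 32 to 140 for the second wave, and the members called stayed at 0. The waves were compared with the same 4 WT libraries. Few genes of any kind passed in these comparisons (in the second wave 0.175% as lower).

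In the first wave, Lck was 9911, 9158 and 10008 against 8473, 8962, 10505 and 10168 in WT libraries 1 to 4, within the WT range (log2 fold change 0.03, 95% interval -0.25 to 0.31, adjusted p = 0.960). Cd3d was 811, 801 and 839 against 614, 782, 952 and 723 (0.11, 95% interval -0.30 to 0.51, adjusted p = 0.883). Cd3g was 3138, 2204 and 2518 against 1992, 2006, 2612 and 2067. All 3 first-wave values of Cd3g exceeded 3 of the 4 WT values and 1 exceeded the fourth (0.27, 95% interval -0.09 to 0.62, adjusted p = 0.661).

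Lat, one of the members that differed in the acute libraries, was 1469, 1352 and 1215 in the first wave and 1027, 1374 and 1019 in the second, against 1206, 1137, 1512 and 1275 in WT survival libraries 1 to 4. Its log2 fold changes were 0.07 (95% interval -0.30 to 0.45) and -0.18 (95% interval -0.55 to 0.20). These groups overlapped. Whether the acute and survival differences differ from each other was not tested, since the tables were scaled separately.

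Cd4 had the largest coefficient of variation of the 10 members in the second wave (62.6%) and in WT survival (59.5%), but not in the first wave (14.3%, against 38% for Zap70). It had 407, 480 and 362 normalized counts in the first wave, 365, 601 and 140 in the second, and 141, 207, 297 and 546 in WT libraries 1 to 4. WT libraries 1 and 2 and second-wave library 3 were low, and the groups overlapped. The log2 fold change was 0.65 in the first wave (95% interval -0.34 to 1.65, adjusted p = 0.690) and 0.25 in the second (95% interval -0.74 to 1.25, adjusted p = 0.847), intervals that include a change as large as the acute one as well as none.

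In the second wave 8 of the 10 members had a negative log2 fold change against WT. The median was -0.15 over the members and -0.01 over all genes, and no member passed the test. The member with the smallest p was Cd8a, at 3545, 4646 and 2660 against 4479, 5187, 4808 and 4639 in WT libraries. Second-wave library 2 lay within the WT range and the other two below it (log2 fold change -0.44, SE 0.18, unadjusted p = 0.0303, adjusted p = 0.336). Cd8b1, its partner chain, overlapped WT at 1097, 1373 and 1025 against 750, 961, 1495 and 1360 (0.07, 95% interval -0.44 to 0.58).

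Between the 2 KO waves, a comparison without WT libraries, 9 of the 10 members had a negative difference of the second from the first, Cd247 being the exception (log2 fold change 0.05). No member passed the test, and 1 had an unadjusted p under 0.05, against 0.119% and 6.34% of all genes. The 17 genes called between the waves became 1 without first-wave library 1 or 2, and 4 to 10 without first-wave library 3, second-wave library 1 or WT survival library 2, 3 or 4, and 38 without second-wave library 3. The median was -0.32 over the members and -0.01 over all genes. Cd8a was 5429, 6069 and 4474 in the first wave and 2660 to 4646 in the second, which overlap, with a log2 difference of -0.58 (unadjusted p = 0.00927, adjusted p = 0.566).

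Cd3d, Cd3e and Lck had lower values in each second-wave than in each first-wave library, 3 of 10 members, and 7.29% of all genes showed that lower separation. Cd3d was 619, 519 and 688 in the second wave against 801 to 839 in the first (log2 difference -0.43, adjusted p = 0.791). Cd3e was 3596, 4051 and 3918 against 4236 to 5128 (-0.31, adjusted p = 0.914), and Lck was 7962, 8996 and 8711 against 9158 to 10008 (-0.18, adjusted p = 0.928). The summed thymocyte and T-ALL markers also separated, at 91207 to 98820 in the second wave and 108970 to 134640 in the first. So did the B cell markers (253 to 304 against 388 to 477) and the natural killer cell markers (390 to 646 against 743 to 867). Most of the natural killer cell sum was Gzma (319 to 529 against 603 to 747). The other 9 natural killer cell genes overlapped, at 70.9 to 131 against 120 to 159. The part of these differences in the members' values was not tested. Without second-wave library 1, which stood apart on the first principal component, 8 of the 10 members had a negative difference between the waves and 7 of 10 against WT, Zap70 being positive in both (0.08 and 0.09).

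The other genes of T cell receptor signalling, 64 genes in 5 lists, were all tested. In the acute comparison 3 were higher, 7 were lower and 54 did not pass, with a median log2 fold change of 0.08 against 0.03 over all genes. Among all 14184 genes tested, 4.58% were higher and 8.07% lower. Among those higher were Itpr1, the IP3 receptor through which calcium leaves its store (765 to 1127 by the means, log2 fold change 0.55, SE 0.13, adjusted p = 0.0121), and Dgka, a diacylglycerol kinase that curbs Ras activation (1421 to 1969, 0.46, adjusted p = 0.0313). Itpr1 lost its call without KO libraries 1 and 2 together and with eBayes without trend.

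Lower were the phosphatase Ptpn6 (SHP-1), the adaptor Nck1, which links the receptor to actin, Bcl10, a scaffold of NF-κB activation, the inhibitors Cish and Sla, the costimulatory receptor Cd28 and Sh2d1a, the SLAM adaptor SAP. Nck1 had means of 499 in KO and 843 in WT (log2 fold change -0.78, SE 0.17, adjusted p = 0.0111). Ptpn6, named here after its value was seen because it removes the phosphates that Lck and Zap70 add, had means of 204 in KO and 522 in WT (-1.46, SE 0.35, adjusted p = 0.0150). Nck1 and Ptpn6 lost their calls without KO libraries 1 and 2 together and with eBayes without trend (highest adjusted p over their alternatives 0.0627 and 0.0834). Of the 11 genes induced by receptor signalling, such as Nr4a1 and Egr1, 10 were tested and limma called 0 in the acute comparison, with 0 at an unadjusted p under 0.05. The shares of all genes were 12.6% and 28.1%. Nr4a1 ranged from 62.9 to 232 in KO and 113 to 139 in WT libraries.

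Among 15 regulators of the coreceptor genes, 0 were higher and 3 were lower in KO acute libraries: Cbfb, the partner of the RUNX factors that silence Cd4 in CD8 cells, Tcf7 (TCF-1) and Myb. Over all genes tested, 4.58% were higher and 8.07% lower. Cbfb was 971 to 1201 in KO and 1735 to 1986 in WT libraries (log2 fold change -0.79, SE 0.11, adjusted p = 0.00122), and Tcf7 had means of 10308 and 18946 (-0.91, SE 0.14, adjusted p = 0.00159). Both passed in each of the 18 alternatives tried. Zbtb7b (ThPOK), which directs the CD4 lineage, had a mean of 36.9 in KO and 13.2 in WT libraries (1.13, SE 0.59, adjusted p = 0.227), and Runx3, which directs the CD8 lineage, 43.3 and 20.5 (1.02, SE 0.45, adjusted p = 0.154).

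Of the 8 receptor chains outside the CD3 complex, 0 were higher and 4 lower in KO acute libraries, against 4.58% and 8.07% of all genes. Those named by the rule were the γ constant genes Tcrg-C1 (means of 459 and 875, log2 fold change -0.97, adjusted p = 0.00495), Tcrg-C2 (982 and 1661, -0.78, adjusted p = 0.00522) and Tcrg-C4 (815 and 1499, -0.92, adjusted p = 0.00676). These are similar copies between which reads may be split. After removal of the dependence on length, GC and abundance their adjusted p were 0.0513, 0.223 and 0.0958, and Tcrg-C2 and Tcrg-C4 also lost their calls with eBayes without trend. Trbc1, a β constant gene, had means of 3456 in KO and 4373 in WT libraries (-0.35, adjusted p = 0.0791). The other β constant gene, Trbc2, had means of 2919 in KO and 4133 in WT libraries. Its ranges, 2497 to 3523 in KO and 3870 to 4348 in WT, did not overlap, and 11% of all genes showed that lower separation. Its adjusted p is not given here.

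In the first wave 0 of the 64 signalling genes passed, with 4 at an unadjusted p under 0.05, against 0% and 8.02% of all genes. In the second wave 1 was lower, against 0.175% of all genes. That gene, Txk, a Tec family kinase, had a mean of 144 in the second wave, 307 in the first and 443 in WT survival libraries. Its log2 fold change in the second wave against WT was -1.60 (SE 0.29, adjusted p = 0.0319), and it passed in 10 of 20 alternatives. Among the libraries whose omission ended the call were first-wave 1, 2 and 3, second-wave 2 and 3 and WT survival 1 and 2 (highest adjusted p over all alternatives 0.246). Between the waves 0 of the 64 passed, with 8 at an unadjusted p under 0.05, against 0.119% and 6.34% of all genes.

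Within each table the members did not all vary together. Against the mean of the standardized log2 values of the 4 CD3 chains, Lck had a Pearson r of 0.93 over the 8 acute and 0.74 over the 10 survival libraries, Cd8a 0.71 and 0.61, and Cd8b1 0.76 and 0.67. The chains, themselves part of that mean, did not follow it equally. The r was 0.74 and 0.816 for Cd3d, 0.892 and 0.798 for Cd3e and 0.818 and 0.814 for Cd3g. For Cd247 it was only 0.595 and 0.224. In the acute libraries Zap70 (-0.62), Lat (-0.50) and Cd4 (-0.47) ran the other way, and in the survival libraries their r was 0.37, 0.72 and 0.28. Among 8150 genes with a mean of at least 100 in both tables, those closest to the CD3 mean by the smaller r of both tables were Tbrg1 (0.78 and 0.80), Psmd8 (0.86 and 0.77), Zfp748 (0.85 and 0.77), Eef2 (0.77 and 0.85), Coro1a (0.89 and 0.76) and Dpysl2 (0.76 and 0.79). These correlations are descriptions over libraries that also share their group, cell makeup and scaling.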

How the data were processed

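The authors deposited a table of 8 acute and a table of 10 survival libraries whose unit is signal: normalized counts. Per the submitters' processing notes, kallisto 0.44.0 estimated the reads of each gene on GRCm38 and DESeq scaled them. The sources used here do not give the annotation, the strand setting or a gene filter. Low values gave 37.9% to 63.6% whole multiples (within 0.02) of the value of 1 read, so whole reads were not recovered and no count model was used. The highest correlation between libraries was 0.954, and no 2 columns were identical.

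Tests used the log2 of each value plus 1, for genes averaging 10 or more, and limma 3.58.1 (R 4.3.3, lmFit and then eBayes with trend), with Benjamini-Hochberg adjustment over all genes tested and a threshold of 0.05. The acute fit held 8 libraries, and the survival fit 10 libraries with 4 contrasts. Ratios were compared by two-sided exact permutation tests. The script was tested on simulated data. Lengths and coordinates came from GENCODE M21. The text names the 10 members, of the other lists the 8 genes of smallest adjusted p past the threshold per comparison (1 of them is not reported here), and the 6 genes most like the CD3 mean; the other genes were named after their values were seen. The members and lists were chosen with earlier results of these data known. Same-numbered libraries did not deviate together (r of -0.029 to 0.095). Alternatives covered the pseudocount, filter, scaling, eBayes setting, a trend over length and GC content, a replicate block and left-out libraries.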

Additional observations from a re-analysis of the deposited data

Results flagged for a closer look

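Of the 30 groups of 4 libraries examined (10 members in KO acute, WT acute and WT survival), 2 held a library far from the other three, with a gap of more than 0.829 of the group's range. Chance flags about 1 group in 20. Cd4 in KO acute library 4 was 214.7 normalized counts, whereas the others were 483.39 to 532.44 (gap 0.846 of the range). Cd3g in WT survival library 3 was 2612 normalized counts, whereas the others were 1992.3 to 2067.4 (gap 0.879 of the range).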

How the results depend on the processing

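In the acute comparison 3 members were called. The count was 0 with eBayes without trend and 0 without both KO acute libraries of high mitochondrial share, and it ran from 0 to 3 when each library was left out in turn. It was 2 after quantile normalization, 2 after removal of the dependence on length, GC and abundance, and 3 under the other scalings, filters and pseudocounts tried. With the replicate number as a block it was 2 (Cd4 and Cd8a, with Cd3g at an adjusted p of 0.0551 and Lat at 0.072); the numbers do not pair the samples. Of 180 acute member values under alternatives, 139 kept direction and side of the threshold, 27 lost it, 3 gained it, none of the called values changed sign, and 11 uncalled values did (largest 0.17). In each of the 4 survival comparisons the count stayed at 0 under every alternative run, the replicate block included, with lowest adjusted p of 0.225 to 0.303 for a member. Uncalled values changed sign in 15 of 210 for the first wave (largest 0.27), 8 of 210 for the second (0.36), 5 of 200 between the waves (0.18) and 9 of 200 for both waves (0.16). Of 216 ratio values, 19 changed sign and none had an adjusted p under 0.0857. In the exact permutation test the smallest possible p was 0.0571 for 3 against 4 libraries and 0.1 for 3 against 3. Ratios compared in groups of such size or smaller could not pass, so their lack of a call carries no information. With 4 against 4 libraries, a single ratio could not pass after adjustment either, however far apart the groups lay.

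Over all genes, acute calls were 1794 (650 higher), and 1578 (746 higher) after quantile normalization, 1166 (557 higher) after trend removal, 693 without eBayes trend, 1179 without WT 2, 983 without WT 4 and 903 without KO 1 and 2. First-wave calls were 0, and 0 to 3 over the alternatives. Second-wave calls were 32, and 13 to 140 over the alternatives, 140 without WT survival 3. Calls for both waves were 3, and 2 to 155 over the alternatives, 155 without WT survival 3. Calls between the waves were 17, and 1 to 38 over the alternatives: 2 with the replicate block, 1 with eBayes without trend, and 1 without first-wave 1 or 2. The causes were not tested. Depth is known only as an estimate, and no counting interval was given.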

Other observations

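WT survival libraries 1 and 2 differed from the other libraries in the balance of the CD8 chains. Their ratio of Cd8b1 to Cd8a was 0.168 and 0.185, and it was 0.252 to 0.385 in the other 16 libraries. The same pair had the lowest Cd8b1 of the survival libraries (750 and 961), and their Cd4 was 141 and 207, while Cd8a was 4479 and 5187, within the range of the other survival libraries. On the first principal component they lay at -78.6 and -67.2; second-wave library 1 lay at 73.2 and the other 7 survival libraries between -4.2 and 18.8.

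The 3 first-wave libraries were close in the ratio of Cd8a to Cd4, at 13.3, 12.6 and 12.4, whereas the 4 WT survival libraries ran from 8.49 to 31.7 and the second-wave libraries from 7.73 to 19.1.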
